A study of Mus musculus with 4 samples.

Results

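The testis-specific serine kinases are a small family of protein kinases made almost solely in developing sperm cells, and 7 of the 25265 genes in the deposited count table make up the set described here. They are the kinase genes Tssk1, Tssk2, Tssk3, Tssk4, Tssk5 and Tssk6 and the gene of the kinase substrate Tsks, each matched by its symbol to exactly 1 row, and all 7 passed the filter on low counts. RNA of whole testis, from C57BL/6 mice aged 56 days, was sequenced after removal of ribosomal RNA. The labels call 2 of the libraries control and the other two Ythdf2-vKO (genotype/variation), and strain, tissue and age are the same in all 4. The series title describes a germ cell-specific mutation of Ythdf2, which encodes a cytoplasmic reader of N6-methyladenosine (m6A) in RNA. The labels give neither the alleles of either group nor how the mutation was kept to germ cells, and do not say whether each library came from its own animal, so that p-values measure the spread between these libraries only.

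The kinases belong to the calcium/calmodulin-dependent branch of the kinome and appear after meiosis, when the round spermatid reshapes its nucleus, builds the tail and sheds its cytoplasm. TSSK1 and TSSK2 phosphorylate TSKS, and male mice without both kinases are infertile. TSSK6 is needed for normal packing of sperm chromatin, and TSSK4 binds the outer dense fibre protein ODF2.

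Total counts lay between 24862518 and 29561182 per library. Ythdf2 itself was not lower in the vKO-labelled libraries (51 and 53.5 in the controls against 66.3 and 67, as counts scaled to a common library size, CPM), so groups are called by their labels throughout. Markers of germ cells and testicular somatic cells were all detected. Of 4 epididymis markers, Lcn5 and Spag11a matched no symbol among the 25265 genes, and the other 2 summed to between 0.0856 and 0.4 CPM.

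Each of the 7 genes lay above 9.43 CPM, the median of the mean levels of the genes tested, in every library. Together they made up 0.206% to 0.235% of a library's counts, and the 6 kinases alone had between 37258 and 44483 counts. Levels of different genes were compared as TMM-scaled CPM per kilobase of annotated exon. Tsks was highest at 317 to 403 CPM per kilobase over the 4 libraries, followed by Tssk6 (269 to 374) and Tssk2 (241 to 312). This order held within each of the 4 libraries, although the ranges of Tsks and Tssk6 overlapped, as did those of Tssk6 and Tssk2. Tssk3 came next (149 to 192), then Tssk1 (95.1 to 104), Tssk4 (63.6 to 80.2) and Tssk5 (16.3 to 23.4), and no range overlapped the next. The places of Tssk1 and Tssk4 rest on the length used. Per kilobase of its coding transcript alone Tssk4 had 85.8 to 108, which overlaps Tssk1. GENCODE M21 gives Tssk1 3700 bases, of which 2475 follow the coding part, whereas its RefSeq gene ends after 1451 bases. Per kilobase of the RefSeq gene the level of Tssk1 was 243 to 264, within the range of Tssk2. Exons of Ndufa13 on the other strand cover 28.1% of Tssk6, and the strand setting of the counting is not given. What this overlap means for the place of Tssk6 was not tested. The least abundant member, Tssk5, still had between 848 and 1311 counts per library.

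None of the 7 genes passed the adjusted threshold of 0.05 in the quasi-likelihood test of edgeR, against 0.393% of the 21132 genes tested (83 genes). At an unadjusted p under 0.05 there were also 0 of 7, against 14.1% of all genes. A DESeq2 Wald test called 0 of the 7, against 1.32% of the 16448 genes with an adjusted p in that fit. Tssk1, Tssk2, Tssk3, Tssk4, Tssk6 and Tsks had log2 fold changes below 0 in the vKO-labelled libraries, as did 49.7% of all genes, and Tssk5 had a value above 0. The median of the 7 was -0.18, beside 0.00 for all genes. In CPM the groups did not overlap for Tssk2, Tssk3 and Tssk5, against 45.3% of all genes. The 95% intervals of the 7 differences, not adjusted for the number of genes, together ran from 0.69-fold to 1.54-fold.

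**Figure D1:**
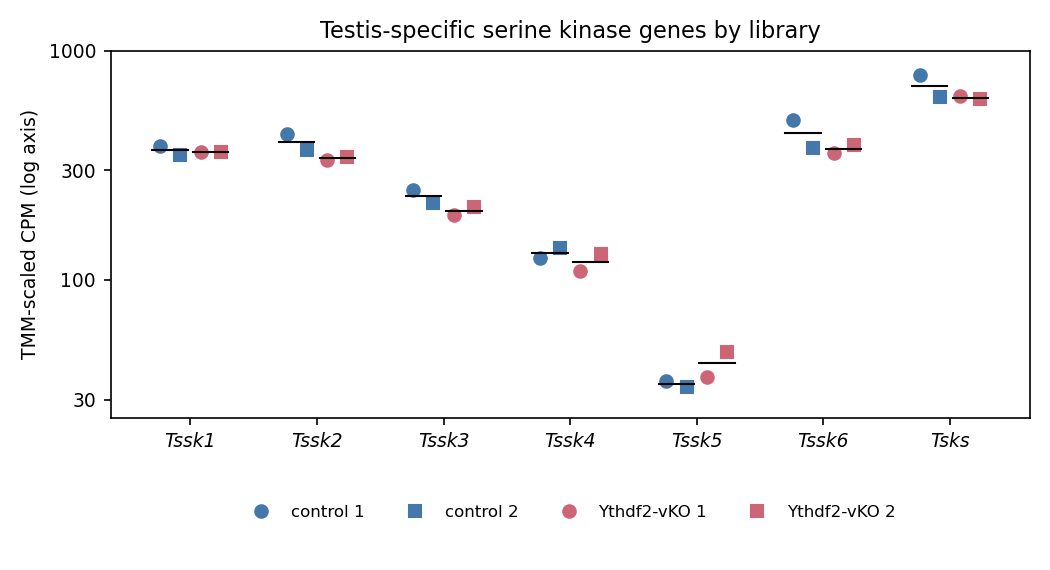
TMM-scaled CPM (log axis) of the 7 genes in each library, with control in blue and the libraries labelled vKO in red, circles for replicate 1, squares for replicate 2, and a black bar at each group mean (n = 2). Control 1 is the highest library for Tssk1, Tssk2, Tssk3, Tssk6 and Tsks, and the vKO libraries are highest for Tssk5 at 37.8 and 48.6 CPM.

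The sequences of Tssk1 and Tssk2 are shown because they bear on how the reads of these neighbours can be told apart. Both are single-exon genes on the plus strand of chromosome 16 in GRCm38 (GENCODE M21), Tssk1 (ENSMUSG00000041566) from 17894223 to 17897922 and Tssk2 (ENSMUSG00000045521) from 17898637 to 17900024, with 714 bases between them. Their coding sequences were 83.5% identical over 1036 aligned bases, whereas Tssk1 and Tssk4, the pair with the next highest value, reached 69.0%. The longest run that Tssk1 and Tssk2 share without a mismatch was 113 bases, in the part that codes for the kinase domain. It lies at chr16:17894723-17894835 in Tssk1 and at chr16:17899105-17899217 in Tssk2, and the capitals mark a GGACT, the commonest core of the m6A consensus.
Tssk1 and Tssk2: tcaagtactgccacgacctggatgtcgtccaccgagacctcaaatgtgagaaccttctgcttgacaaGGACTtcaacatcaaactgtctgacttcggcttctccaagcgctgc
Of the stretches of 50 bases in the Tssk2 transcript, 9.3% also occur in Tssk1, as do 3.4% of those in Tssk1 in Tssk2. Read in the same orientation, none from the other 5 genes occurs in a transcript of any other gene. Matches on the other strand were not searched, and there exons of Ndufa13 cover 28.1% of Tssk6. The read length and the treatment of reads with several matches are not given in the sources used here. The counts of Tssk1 and Tssk2 are therefore uncertain to the extent of the stretches they share.

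The similarity of the neighbours also reaches the sequence before their starts. In the RefSeq promoter windows (GRCm38.p6, 250 bases before to 50 after the start, 6 of the 7 genes matched, Tssk5 being the other), the best local alignment of any pair was between Tssk1 and Tssk2. It matched 41 of 49 aligned bases, at chr16:17894150-17894201 for Tssk1 and chr16:17898574-17898622 for Tssk2, both on the plus strand. The capitals mark the bases that are identical in the alignment.
Tssk1: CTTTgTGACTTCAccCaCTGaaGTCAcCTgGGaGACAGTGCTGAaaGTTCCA
Tssk2: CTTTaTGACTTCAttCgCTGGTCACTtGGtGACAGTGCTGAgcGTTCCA
Both stretches hold TGACTTCA, a motif chosen after the alignment was seen, which 1.52% of the 32851 promoter windows hold on either strand. The cyclic AMP response element TGACGTCA, bound by CREM in spermatids, was in none of the 6 windows and in 1.79% of all. The shorter TGACG, which lies within it, was found in Tssk6 alone, against 20.8% of all windows. The TATA core TATAAA was in none of the 6 and in 13.6% of all. The Tssk3 window, chr4:129490721-129491020, lies within the GENCODE gene of Tssk3. It therefore holds none of the sequence before the start of that gene.

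Tssk1 and Tssk2, the kinases of TSKS, did not have the same values. Tssk1 had 384 and 352 CPM in the controls, against 360 and 363 CPM in the vKO-labelled libraries. Both vKO values lay between the control values, and the log2 fold change was -0.02 (SE 0.12, 95% interval -0.28 to 0.23, adjusted p 0.959, quasi-likelihood test of edgeR). Its sign changed with library totals alone in place of TMM (0.04) and without control 1 (0.03). Tssk2 had 434 and 367 CPM in the controls, against 335 and 344 CPM in the vKO-labelled libraries, so that both vKO libraries lay below both controls. Its log2 fold change was -0.24 (SE 0.12, interval -0.50 to 0.03, adjusted p 0.426). Without control 1 it was -0.12, and without control 2 it was -0.35 and passed the threshold at an adjusted p of 0.0393. In that fit 4.93% of all genes passed.

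The ratio of both kinases within a library needs no scaling. For each 100 counts of Tssk2 there were 88.5 and 96 of Tssk1 in the controls, against 108 and 106 in the vKO-labelled libraries. The groups did not overlap. With 2 libraries against 2, an exact two-sided permutation test cannot go below p = 0.333, and the ratio was not tested in another way.

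**Figure D2:**
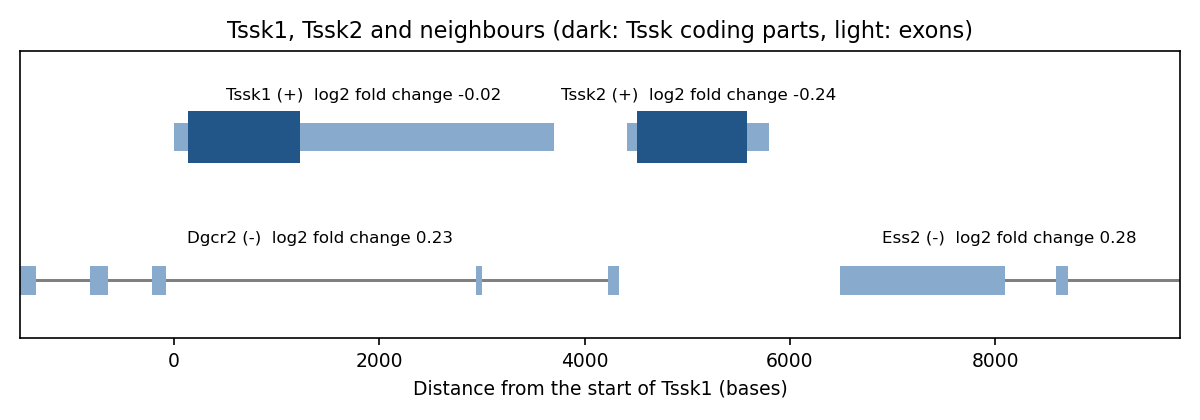
Map of Tssk1 and Tssk2 (top row, plus strand) with Dgcr2 and Ess2 (bottom row, minus strand), by distance in bases from the start of Tssk1, with each gene's log2 fold change (vKO minus control). Tssk1 lies inside the gene body of Dgcr2, and the adjacent genes have values of -0.02, -0.24, 0.23 and 0.28.

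The genes on the other strand of this locus had values of the opposite sign to Tssk2. Tssk1 lies wholly within the body of Dgcr2, which encodes a membrane protein, and shares 63 exonic bases with it (1.7% of Tssk1). Dgcr2 had 51.5 and 49.9 CPM in the controls, against 58.1 and 60.5 CPM in the vKO-labelled libraries, with a log2 fold change of 0.23 (adjusted p 0.46). Ess2, whose annotated 3' end lies 684 bases past Tssk2, had 40.3 and 34.2 CPM against 44.9 and 45.6 CPM, with a log2 fold change of 0.28 (adjusted p 0.386). Neither passed the threshold. The libraries were directional per the labels' protocols, but the strand setting of the counting is not given in the sources used here.

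Tsks (ENSMUSG00000059891, chromosome 7, 44943204 to 44958035, plus strand, 11 exons in its coding transcript) encodes the substrate that TSSK1 and TSSK2 phosphorylate. It had 781 and 629 CPM in the controls, against 635 and 614 CPM in the vKO-labelled libraries. Control 1 stood above the other 3 libraries, which lay within 614 to 635 CPM. The log2 fold change was -0.18 (SE 0.13, interval -0.45 to 0.10, adjusted p 0.597), and it was -0.02 without control 1 and -0.32 (adjusted p 0.0536) without control 2. Relative to the summed counts of Tssk1 and Tssk2, Tsks had 95.5 and 87.6 counts per 100 in the controls, against 91.5 and 86.7 in the vKO-labelled libraries, and these groups overlapped.

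Tssk6 (ENSMUSG00000047654, chromosome 8, 69902184 to 69903518, plus strand, 1 exon) encodes the kinase linked to chromatin packing. It had 499 and 376 CPM in the controls, against 359 and 386 CPM in the vKO-labelled libraries. Control 1 again stood apart, and control 2 lay between the vKO libraries. The log2 fold change was -0.23 (SE 0.14, interval -0.54 to 0.07, adjusted p 0.504). Without control 1 it was -0.02, and without control 2 it was -0.42, each with a lone control library. Ndufa13, a gene of respiratory complex I on the other strand, covers 375 exonic bases of Tssk6 (28.1%), and had 81.4 and 82.9 CPM in the controls against 70.8 and 73.9 CPM (log2 fold change -0.18, adjusted p 0.555). Yjefn3, which shares 15 exonic bases with Tssk6, had between 18 and 35 counts per library.

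Tssk6 and Tsks are also the members richest in G and C, at 64.8% and 62.0% of the transcript, beside a median of 48.9% over the genes tested. The other 5 lay between 52.3% and 54.8%. Libraries differed in their relation to GC content. Across 17817 genes, which are not independent replicates, a library's deviation and GC content had a Spearman correlation of -0.399 in control 2, 0.0238 in control 1, and 0.254 and 0.189 in the vKO-labelled libraries. With an offset for GC content the log2 fold change of Tssk6 was -0.48 (adjusted p 0.0821) and that of Tsks was -0.40 (adjusted p 0.128), more than 1.5 times their values without it. The median of the 7 was then -0.30, and 0 of them passed, against 0.738% of all genes in that fit.

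Tssk3 (ENSMUSG00000000411, chromosome 4, 129489014 to 129491022, minus strand, 2 exons) is a kinase of spermatids that male mice need for fertility. It had 246 and 217 CPM in the controls, against 191 and 207 CPM in the vKO-labelled libraries, and the groups did not overlap. The log2 fold change was -0.22 (SE 0.12, interval -0.48 to 0.05, adjusted p 0.463). It was -0.13 without control 1 and -0.30 without control 2. Fam229a starts 167 bases from Tssk3 on the other strand. It had 180 and 158 CPM against 169 and 170 CPM, a log2 fold change of 0.00. Bsdc1, on its other side, had 90.4 and 74.7 CPM against 79.5 and 74.9 CPM, and the groups overlapped for both neighbours. Gm12979, 946 bases away, was not among the 25265 genes.

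Tssk4 (ENSMUSG00000007591, chromosome 14, 55650184 to 55652539, plus strand, 4 exons) encodes the kinase that binds ODF2 in the sperm tail. It had 124 and 138 CPM in the controls, against 109 and 130 CPM in the vKO-labelled libraries. The groups overlapped, and replicate 1 was the lower library in each. The log2 fold change was -0.13 (SE 0.13, interval -0.41 to 0.16, adjusted p 0.732), and it was -0.21 without control 1, -0.04 without control 2, 0.00 without vKO 1 and -0.26 without vKO 2. No gene lay within 1000 bases of Tssk4 or of Tsks.

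Tssk5 (ENSMUSG00000060794, chromosome 15, 76371952 to 76374938, minus strand, 8 exons in its coding transcript) was the member with a positive difference. It had 36.3 and 33.9 CPM in the controls, against 37.8 and 48.6 CPM in the vKO-labelled libraries. The groups did not overlap, but vKO 1 lay closer to control 1 than to vKO 2. The log2 fold change was 0.30 (SE 0.15, interval -0.02 to 0.63, adjusted p 0.399), and it was 0.11 without vKO 2 and 0.47 without vKO 1. As counts per 100 of the other 5 kinases, Tssk5 had 2.15 and 2.34 in the controls, against 2.79 and 3.39 in the vKO-labelled libraries. This ratio uses the same Tssk5 counts, set against kinases with values below 0. It is therefore no separate observation, and it was not tested either. Hgh1, 514 bases away on the other strand, had 49.4 and 36.9 CPM against 36 and 40.6 CPM (log2 fold change -0.17, adjusted p 0.693).

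Other coding matches of GGACT are shown because YTHDF2 reads m6A, with the match in capitals between its neighbouring bases. They are letters in an RNA, and no methylation was measured.
Tssk2, second match: agcaccgagtGGACTtcccacgctc
Tssk3: acagcatggaGGACTttctactctc
Tssk4: tgaagatatcGGACTttggcttcgc
Tssk5, second match: ttgtacacagGGACTtgaaatgtga
Tssk6, first match: gagcgcctccGGACTtcgtcaacaa
Tsks: tggccactttGGACTatatgcattt
Each of the 7 coding transcripts held at least 1 GGACT, from 0.54 per kilobase in Tsks to 1.62 per kilobase in Tssk1. In Tssk1 4 of the 6 matches lie past the end of the RefSeq gene, and up to that end it held 1.40 per kilobase, below Tssk6 and below Tssk2 (1.44 per kilobase). The median over the longest transcripts of all genes tested was 1.02 per kilobase, and 14.1% of those held none.

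In the authors' deposited table the 7 genes had adjusted p values from 0.534 (Tssk5) to 0.979 (Tssk1), with log2 fold changes from -0.24 for Tssk2 to 0.30 for Tssk5. For all 7 these equal the values of the DESeq2 Wald test run here on the same counts. They are therefore no separate observation.

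**Figure D3:**
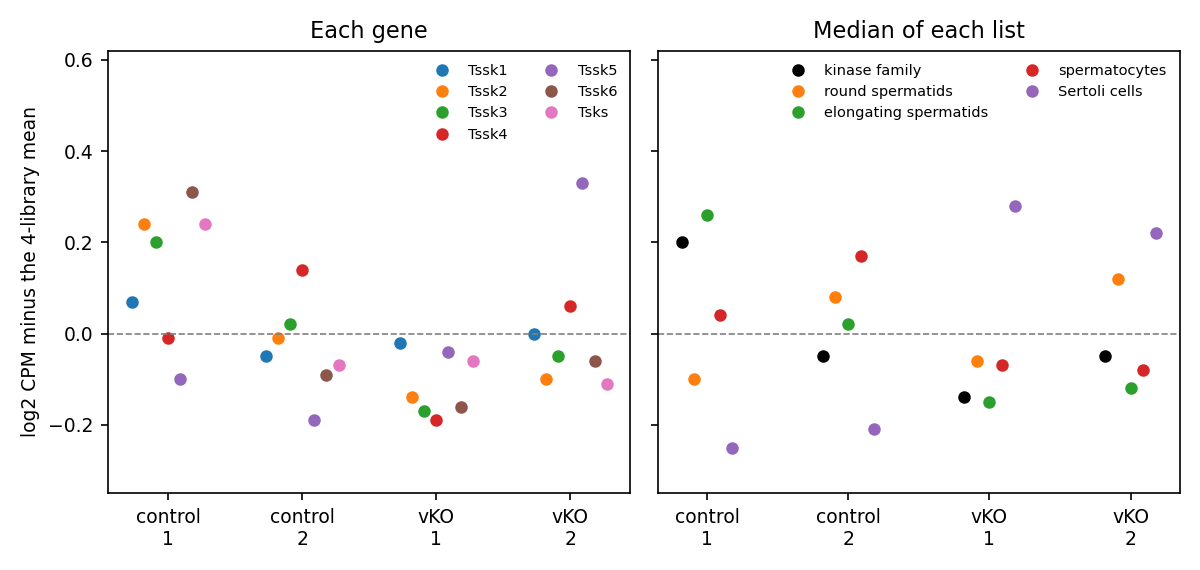
Deviation of log2 CPM from the 4-library mean in each library, for the 7 genes (left) and as the median of 5 gene lists (right). Control 1 is the highest library for the kinase family median (0.20) and for elongating spermatid genes (0.26), and Sertoli cell genes are below 0 in both controls and above 0 in both vKO libraries.

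The composition of the testis RNA was read from marker lists beside these values. In whole tissue, fewer cells of a type and less RNA per cell cannot be told apart. The median deviation of the kinase family was 0.20 in control 1, -0.05 in control 2, -0.14 in vKO 1 and -0.05 in vKO 2. Elongating spermatid genes, among them the transition proteins and protamines that replace histones, had 0.26, 0.02, -0.15 and -0.12 in the same libraries. Of these 10 genes 9 had log2 fold changes below 0, with a median of -0.27, summed levels of 10822 to 13051 CPM in the controls, against 10173 to 10459 CPM in the vKO-labelled libraries, and 0 called. Round spermatid genes had 3 of 7 below 0, a median of 0.06 and sums of 885 to 916 CPM against 917 to 999 CPM, and the median was -0.06 without control 1, 0.10 without control 2, 0.16 without vKO 1 and -0.04 without vKO 2. Spermatocyte genes had 7 of 8 below 0, a median of -0.16 and sums of 3748 to 3856 CPM against 3386 to 3460 CPM, and the median was -0.27 without control 1, -0.07 without control 2 and -0.06 with an offset for GC content. Sertoli cell genes, of the somatic cells that support the germ line, had 8 of 8 above 0, a median of 0.48 and sums of 977 to 1023 CPM against 1242 to 1412 CPM, and Wt1 was called (0.71, adjusted p 0.0418). Spermatogonia genes had 7 of 7 above 0, a median of 0.41 and sums of 94.3 to 95.5 CPM against 104 to 116 CPM. Their median ran from 0.28 without vKO 1 (2 of 7 below 0) to 0.49 without vKO 2 (0 of 7 below 0). Leydig cell genes had 6 of 6 above 0 and a median of 0.38, but their sums overlapped, at 249 and 304 CPM against 412 and 300 CPM. The Leydig cell median ran from 0.28 without vKO 1 (2 of 6 below 0) to 0.50 without vKO 2 (0 of 6 below 0). Myoid cell genes had 2 of 4 above 0 and a median of -0.01, which ran from -0.32 without control 1 to 0.45 without control 2. Macrophage and endothelial genes each had 3 of 4 above 0. The macrophage median was 0.32 (0.08 without control 1, 0.75 without control 2, 0.13 without vKO 1). The endothelial median was 0.24, and it ran from 0.17 with an offset for GC content to 0.40 without vKO 1. Some of these genes had few counts per library, such as 7 to 42 for Cd163 and 7 to 26 for Pecam1. None of these 5 lists held a called gene, and 0.393% of all genes were called. An unadjusted p under 0.05 (quasi-likelihood test of edgeR) was found for 14.1% of all genes. It was found for 5 of 10 elongating spermatid, 0 of 7 round spermatid, 1 of 8 spermatocyte and 7 of 8 Sertoli cell genes. Among the others it was found for 2 of 7 spermatogonia, 3 of 6 Leydig cell, 1 of 4 macrophage, 1 of 4 endothelial and 0 of 4 myoid cell genes. Genes of a list are not independent replicates. No marker of these lists was at 0 in any library. Their part in the values of the kinase genes was not tested. Without control 1 the median of the kinase family was -0.02 with 5 of 7 below 0, and that of the elongating spermatid list was -0.16 with 8 of 10. Without control 2 they were -0.30 with 6 of 7 and -0.36 with 10 of 10.

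Proteins that act with the kinases were described from a list of 11 genes. Of these 9 had log2 fold changes below 0 and 2 above, with a median of -0.13 (-0.23 without control 2). None was called at an adjusted p of 0.05 (0.393% of all genes), and 5 had an unadjusted p under 0.05 (14.1% of all genes). Tsacc, the co-chaperone that joins TSSK6 to HSP90, had 35.8 and 38.9 CPM in the controls, against 25.8 and 31.8 CPM in the vKO-labelled libraries. On the log2 scale Tsacc differed by -0.38 (SE 0.15, adjusted p 0.274), and both vKO libraries lay below both controls.

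The cytosolic HSP90 genes had values of opposite sign. Hsp90aa1, the form abundant in germ cells, had 1990 and 2144 CPM in the controls, against 1671 and 1724 CPM in the vKO-labelled libraries (log2 fold change -0.28, adjusted p 0.283). Hsp90ab1 had 241 and 231 CPM against 302 and 266 CPM (0.27, adjusted p 0.344). The groups overlapped for neither gene, and the adjusted p of neither passed. The kinase co-chaperone gene Cdc37 had a value of -0.11 and overlapped.

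Among reported substrates and partners in the sperm tail, Spag16, a central-pair protein of the axoneme that TSSK2 phosphorylates, had 135 and 141 CPM in the controls, against 114 and 117 CPM in the vKO-labelled libraries (-0.26, adjusted p 0.347). Odf2 had 3959 and 3191 CPM against 3114 and 3193 CPM (-0.18, adjusted p 0.573), and control 1 was again the library that stood apart. H2afx, whose phosphorylated histone marks chromatin remodelling in spermatids, had the highest value of the list. It had 48.4 and 36.8 CPM in the controls against 60.4 and 62.3 CPM. On the log2 scale H2afx differed by 0.53 (SE 0.15, adjusted p 0.151), which did not pass the threshold.

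For the remaining partners, values lay from -0.20 to -0.05. Pdpk1, the kinase known to phosphorylate TSSK3, had a log2 fold change of -0.20. Ppp1cc, whose testis isoform is a phosphatase found with TSKS, had -0.13. The transcription factor genes Crem and Creb1 had -0.10 and -0.05, and the groups overlapped for both.

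**Figure D4:**
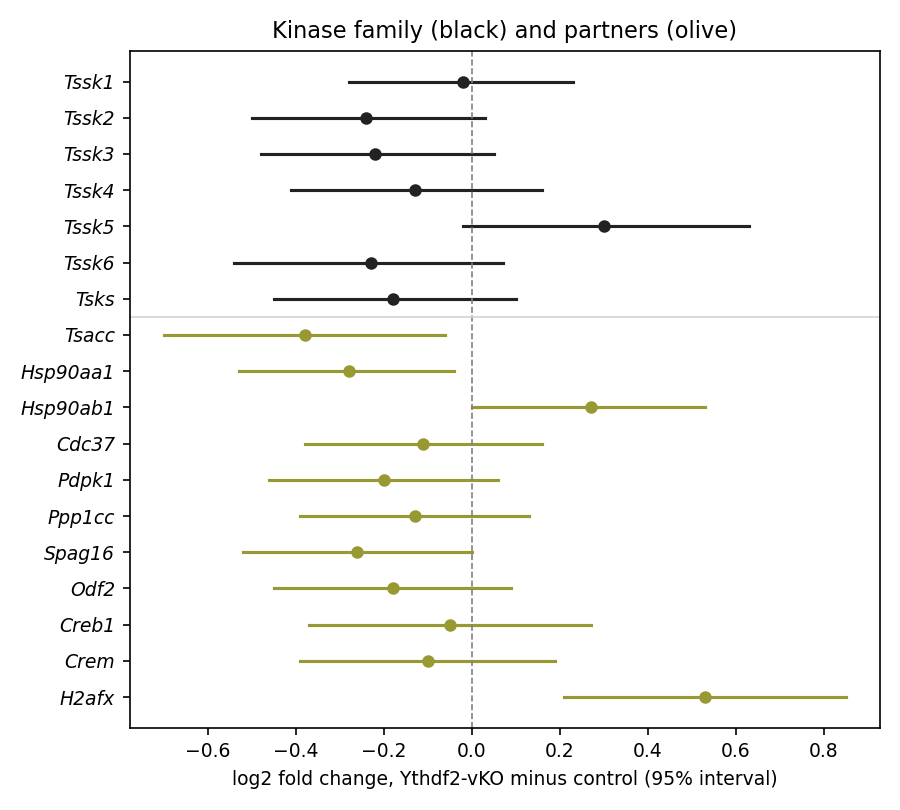
Log2 fold change (vKO minus control) with its 95% interval, not adjusted for the number of genes, for the 7 kinase family genes (black) and 11 partner genes (olive). The intervals of all 7 family genes include 0, and those of 5 partner genes, Tsacc, Hsp90aa1, Hsp90ab1, Spag16 and H2afx, do not.

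Other kinases were described beside the family. Of 15 further germ-line kinases 9 had log2 fold changes below 0 and 6 above, with a median of -0.08 (-0.02 without control 1, -0.12 without control 2, -0.04 without vKO 1). Of these 0 were called (0.393% of all genes), and 3 had an unadjusted p under 0.05 (14.1% of all genes). The lowest value was that of Stk33, a kinase needed for the sperm tail, at -0.35 (397 and 412 CPM in control, 302 and 332 CPM in the vKO-labelled libraries, adjusted p 0.211). The highest was that of Mapk15 at 0.37 (85.8 and 65.8 CPM against 96 and 99.5 CPM, adjusted p 0.268). Of 16 AMPK-related kinases, which lie on the same branch of the kinome but are not restricted to testis, 10 were above 0 and 6 below. Their median was 0.04 (0.25 without control 1, 0.00 without control 2, 0.08 without vKO 1, 0.11 without vKO 2). Again 0 were called, and 2 had an unadjusted p under 0.05, beside the same shares of all genes. Mark4, a microtubule-affinity regulating kinase, had the highest value at 0.80 (33.1 and 20.2 CPM against 49 and 43.6 CPM, adjusted p 0.135). Prkaa2, a catalytic subunit of AMPK, had the lowest at -0.70 with 34 to 63 counts per library (adjusted p 0.397).

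The pattern of the family over the 4 libraries was also compared with that of single genes. The mean deviation of the 7 genes was 0.14 in control 1, -0.04 in control 2, -0.11 in vKO 1 and 0.01 in vKO 2. The mean in vKO 2 includes Tssk5 at 0.33, whereas the median of the 7 in that library was -0.05. Among 10345 other genes with a mean of at least 10 CPM, the 5 with the smallest Euclidean distance to it over the 4 libraries were Rbakdn (0.0124), 4933433G15Rik (0.0182), Ptar1 (0.0235), 4930432E11Rik (0.0258) and Chrne (0.027), in log2 units. With 4 libraries such distances describe likeness only.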

How the data were processed

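The authors deposited raw read counts per gene for 4 libraries, aligned with HISAT2 2.1.0 and counted with HTSeq 0.6.1p1, per the submitters' processing notes. Genome build, strand setting and read length are not given in the sources used here. The deposited table also holds, per the file headers, a mean normalized signal over the libraries, log2 fold changes and their standard errors, a test statistic (a score, not printed) and p-values, under DESeq2 column names. Members were matched by symbol after 26 symbols that had become dates were restored by identifier.

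Counts were tested with edgeR 4.0.16 (limma 3.58.1, R 4.3.3) by TMM scaling, the filterByExpr filter, quasi-likelihood fitting with robust estimation on genotype, and Benjamini-Hochberg adjustment over 21132 genes. The standard error is the absolute log2 fold change over the square root of F, and intervals are 95%. DESeq2 1.42.0 was an alternative. The script was tested on simulated data. Coordinates, lengths and GC content come from GENCODE M21 (GRCm38), which may not be the authors' build. GC content of other genes is that of the longest transcript. The GC offset is a lowess curve per library with a span of 0.3.

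Named genes were the 7 members, Ythdf2, genes within 1000 bases of a member, the partner list, and the highest and lowest of the other kinase lists. The members, lists and rules were chosen with earlier results of these data known. Replicates of a group differed beyond sampling noise (chi-square per degree of freedom 19.4 in control, 7.84 in vKO) and were not merged.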

Additional observations from a re-analysis of the deposited data

How the results depend on the processing

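The test called 83 genes in all. It called 218 with library totals alone, 217 with a DESeq2 Wald test, 156 with the GC offset, and between 35 and 1512 when a library was left out, where the lone library of a group is assumed to vary like the others. With the replicate block there were 1017 calls, and with the GC offset and replicate block 631. Of the 7 kinase family genes 0 were called, except for 1 (Tssk6, log2 fold change -0.48, adjusted p 0.025) with the GC offset and replicate block, where 2.99% of all genes passed, and 0 to 2 when a library was left out (2, Tssk2 and Tssk6, without control replicate 2). The replicate block alone called 0 of the 7, and 4.81% of all genes. The replicate numbers were not taken to pair libraries, since no label ties them to an animal or batch and deviations of libraries with the same number had a correlation of 0.0913 across genes. The Tssk1 log2 fold change reversed to 0.04 with library totals alone, and it ran from -0.08 to 0.03 when a library was left out. Tssk2, Tssk3, Tssk5, Tssk6 and Tsks kept their sign under all 13 alternatives, and Tssk4 was at 0.00 without Ythdf2-vKO replicate 1 and below 0 under the others. The causes were not tested. The median over all genes went from 0.00 to 0.07 with library totals alone. The level of Tssk1 per kilobase was 98.6 CPM with GENCODE exons and 251 CPM with the RefSeq length, and that of Tssk4 was 72.9 CPM with all exons and 98.4 CPM with its coding transcript, both alternatives chosen after seeing the data. The members had at least 848 counts per library, and with 2 libraries per group the spread between libraries is itself imprecise.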
